A study of Mus musculus with 12 samples.

Results

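The genes described here are 9 regulators of ferroptosis, measured in mouse kidneys after ischemia-reperfusion injury (IRI) or a sham operation. They were taken as every non-control probe of the array that carries the name Gpx4, Acsl4, Lpcat3, Slc7a11, Slc3a2, Aifm2, Gch1, Ncoa4 or Alox15. That gave 19 probes for 9 genes, of 37325 genes and transcripts named on the array. Probes seen well above background on 3 or more arrays were kept, as 15 of the 19 were. They cover 8 of the 9 genes, since the single Alox15 probe did not pass. In all, 25937 genes and transcripts had a kept probe.

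Gene expression was measured in 12 kidneys on one-colour Agilent microarrays, where Cy3-labelled RNA binds printed probes and a scanner reads the brightness of each spot. The groups were Jaml knockout mice 24 h after IRI (KO IRI), sham-operated Jaml knockout mice (KO sham), wild-type mice 24 h after IRI (WT IRI) and sham-operated wild-type mice (WT sham), with 3 arrays each. All mice were males, and the series text gives the knockout on the background it writes as C57/6J. The labels do not give the ages, nor how the Jaml gene was deleted or in which cells. For IRI the blood supply of both kidneys was closed, for 40 min according to the series text or 30 min according to the protocol text, and nothing in the labels settles which. The samples of a group are called independent in the series text, so each array was taken as 1 animal. Jaml encodes an adhesion molecule found on leukocytes, and the design asks how the injured kidney differs with and without it.

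Ferroptosis is a form of cell death in which iron drives the peroxidation of polyunsaturated fatty acids in membrane phospholipids. Acsl4 and Lpcat3 place such fatty acids into phospholipids, the lipoxygenase Alox15 can oxidise them, and Ncoa4 delivers ferritin for breakdown, which frees iron. Slc7a11 and Slc3a2 together form the cystine importer that feeds glutathione synthesis, Gpx4 uses glutathione to reduce lipid peroxides, and Aifm2 and Gch1 supply the radical-trapping ubiquinol and tetrahydrobiopterin. Kidney tubules are a tissue in which this form of death is known to follow ischemia.

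The sequences that carry the measurements are those of the 60-base probes, given here for 4 regulators. They are a selection of probes with at least 1 reading frame free of stop codons, and not every such probe is printed. An open frame of this length does not show that the bases are coding. The positions are those in the files, on mouse build mm9. The 2 Acsl4 probes lie on chromosome X, minus strand, at chrX:138755198-138755257 and chrX:138755214-138755273. They share 44 bases, so they read nearly the same site, and the single difference in the shared stretch is A38T, counted from the 5′ end of A_51_P268154 and marked by the capital in both.
Acsl4 A_51_P268154: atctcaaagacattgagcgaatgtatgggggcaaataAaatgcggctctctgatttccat
Acsl4 A_55_P2739470: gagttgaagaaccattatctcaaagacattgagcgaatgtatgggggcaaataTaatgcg
The Gpx4 probe lies on the plus strand of chromosome 10 at chr10:79518691-79518842, where its 60 bases cover 152 bases of the genome and so span a junction.
Gpx4 A_51_P462448: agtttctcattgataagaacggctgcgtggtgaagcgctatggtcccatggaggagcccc
The second Lpcat3 probe lies on the plus strand of chromosome 6 at chr6:124653374-124653542 and spans a junction as well.
Lpcat3 A_51_P145415: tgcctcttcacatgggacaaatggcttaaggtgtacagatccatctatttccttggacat
The second Aifm2 probe lies on the plus strand of chromosome 10 at chr10:61198346-61198405, in 1 unbroken stretch.
Aifm2 A_55_P2002859: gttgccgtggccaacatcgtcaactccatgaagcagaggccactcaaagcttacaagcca

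All levels below are log2 processed signals minus the 75th percentile of their array, and differences are on the same log2 scale. A level can be compared between arrays for 1 probe, and was not set against the level of another probe. The kidney markers were present, with all 6 proximal tubule markers kept. Between 35598 and 38526 probes per array were well above background (62.9% to 68.1%), and no spot was saturated. Arrays of a group correlated with r of 0.968 to 0.995 over all genes, and WT IRI replicate 1 lay farthest from its group mean, by 0.579 log2 units (root mean square), against 0.205 to 0.433 on the others. Slide 1 held all WT arrays and slide 2 all KO arrays, so that genotype and slide cannot be told apart in any comparison of KO with WT. Jaml itself averaged -3.10 ± 0.48 in KO sham kidneys and -0.32 ± 0.10 in WT sham kidneys (SD, n = 3 each), a difference of -2.79 ± 0.56 (SE; limma with Benjamini-Hochberg adjustment, adjusted p = 0.0152). After IRI the KO and WT arrays of Jaml differed by -1.57 ± 0.56 without passing the test (limma, adjusted p = 0.153). In whole kidney RNA, a change in the number of cells of a type and a change in RNA per cell cannot be told apart.

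After IRI, Acsl4 and Gch1 rose in kidneys of both genotypes, and Lpcat3 and Slc7a11 rose in WT kidneys, while no regulator fell past the threshold of an adjusted p of 0.05. In KO kidneys 2 of the 8 tested regulators were higher after IRI, in a comparison in which 6.15% of all genes passed in either direction, 2.11% higher and 4.05% lower. In WT kidneys 4 of the 8 were higher, where 12% of all genes passed in either direction, 6.07% higher and 5.9% lower. One of these 4, Slc7a11, passed the filter on dim probes only through injured kidneys, which favoured its call. When 1 array was left out, 1 to 3 regulators passed in KO kidneys, 1 in the fits without KO IRI replicate 1 or 3 or any 1 KO sham array, and 454 to 3253 of all genes passed, against 1596 with every array. The median difference of the 8 regulators was 0.41 in KO kidneys and 0.59 in WT kidneys, and that of all genes was -0.08 in KO kidneys and -0.01 in WT kidneys. The IRI and sham arrays did not overlap for 5 of the 8 regulators in KO kidneys, where 35.7% of all genes did not overlap. They also did not overlap for 5 of the 8 in WT kidneys, where 32.3% of all genes did not. Slc7a11 is among the 5 in both genotypes and entered these counts and medians through the same filter. In KO kidneys its nearest arrays were KO IRI replicate 2 (-6.51) and KO sham replicate 2 (-6.72), neither well above background. The interaction (KO response to IRI less WT response) passed for none of the 8 and for 0.0694% of all genes (limma). At an unadjusted p under 0.05 it held 0 regulators and 2534 of all 25937 genes (limma).

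**Figure D1:**
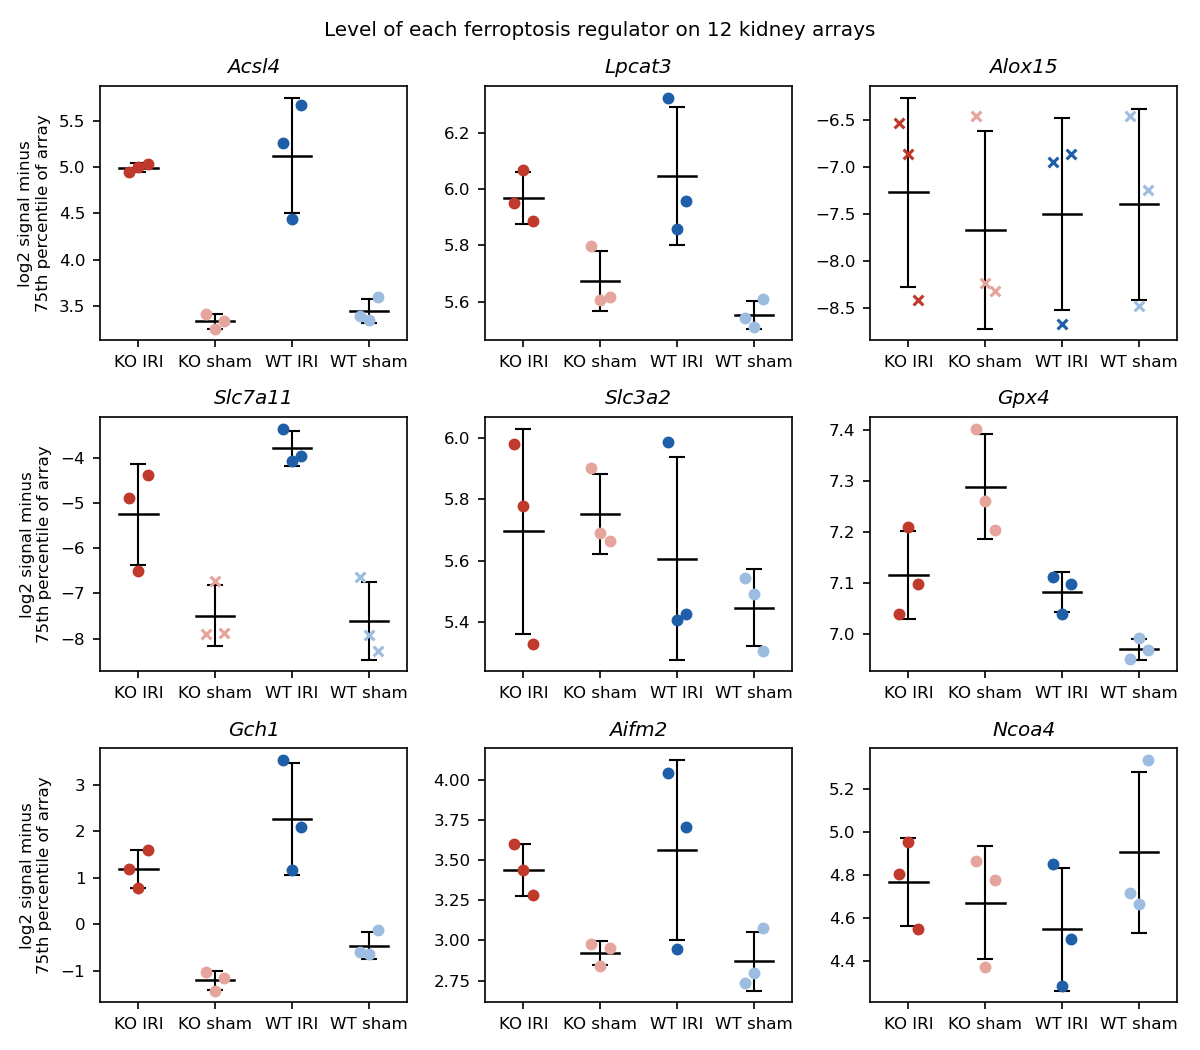
Level of each of the 9 regulators on 12 arrays, as log2 processed signal minus the 75th percentile of the array, for KO IRI, KO sham, WT IRI and WT sham. Points are arrays, and lines give the mean and SD of 3 arrays. Crosses replace the points of a group in which the probe was well above background on no array. KO IRI replicate 2 of Slc7a11 is therefore drawn as a point, although it was not well above background. Acsl4 and Gch1 were higher on all IRI arrays than on all sham arrays of either genotype, and Alox15 was not above background on any array.

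Among the enzymes that supply oxidisable lipids, Acsl4 rose by the same size in KO and WT kidneys. Acsl4 activates long-chain polyunsaturated fatty acids. Its kept probe of highest signal (A_52_P78203, chrX:138752602-138752661, minus strand) read 4.95, 5.00 and 5.04 on the KO IRI arrays, against 3.41, 3.25 and 3.33 on the KO sham arrays. It read 5.26, 4.44 and 5.68 on the WT IRI arrays, against 3.39, 3.35 and 3.59 on the WT sham arrays. All 6 IRI arrays lay above all 6 sham arrays, and the WT IRI arrays spread more widely than the KO IRI arrays, with WT IRI replicate 2 the lowest of the injured kidneys. The difference was 1.66 ± 0.25 in KO kidneys (SE, n = 3 per group, 3.16-fold; limma, adjusted p = 0.0062) and 1.68 ± 0.25 in WT kidneys (3.21-fold; limma, adjusted p = 0.0049). The KO response minus the WT response was -0.02, with a 95% interval of -0.80 to 0.76. When only the 6 WT arrays were fitted, the WT rise had an adjusted p of 0.0645 (limma). The KO rise passed the threshold under all 23 alternatives run.

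The other 2 Acsl4 probes, whose sequences are given above, gave larger differences than the first. A_51_P268154 read 2.27, 2.18 and 2.40 on the KO IRI arrays, against -0.10, -0.02 and -0.02 on the KO sham arrays. The same probe read 3.28, 1.43 and 3.36 on the WT IRI arrays, against 0.07, 0.13 and 0.66 on the WT sham arrays. The groups again did not overlap, and WT IRI replicate 2 again lay lowest. When every kept probe was fitted on its own, these 2 probes differed by 2.33 and 2.35 in KO kidneys and by 2.41 and 2.35 in WT kidneys (SE 0.42 and 0.40), and the 3 Acsl4 probes passed the test in both genotypes (limma, adjusted p of at most 0.0144).

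Lpcat3, which joins the activated fatty acids to lysophospholipids, moved much less. Its probe at chr6:124654029-124654088 (plus strand) read 5.95, 6.07 and 5.89 on the KO IRI arrays, against 5.80, 5.61 and 5.62 on the KO sham arrays. It read 6.33, 5.86 and 5.96 on the WT IRI arrays, against 5.54, 5.51 and 5.61 on the WT sham arrays. The IRI and sham arrays did not overlap in either genotype. The difference was 0.30 ± 0.14 in KO kidneys (limma, adjusted p = 0.247) and 0.50 ± 0.14 in WT kidneys (1.41-fold; limma, adjusted p = 0.0416). The WT call was lost in 15 of 23 alternatives, among them leaving out any 1 of the arrays except WT IRI replicate 2, with adjusted p up to 0.17 over all alternatives. In KO kidneys the difference passed with quantile normalization (0.42), with the authors' deposited log2 table (0.42) and with array weights (0.30). The junction-spanning probe differed by 0.33 ± 0.15 in KO kidneys (limma, adjusted p = 0.254) and by 0.53 ± 0.15 in WT kidneys (limma, adjusted p = 0.0462), so both probes gave the same order.

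Alox15 was not measured. Its 1 probe (chr11:70159115-70159339, minus strand, spanning a junction) was not well above background on any of the 12 arrays. Its processed signal was 8.89, 7.10 and 2.32 in KO IRI, 7.69, 2.24 and 2.37 in KO sham, 5.68, 2.36 and 6.67 in WT IRI and 10.6, 2.13 and 4.89 in WT sham. These values overlap in all 4 groups, and no difference is given for a gene with no group well above background. In mice eosinophils and resident macrophages are cells known for Alox15, and of the 4 eosinophil markers only Siglecf and Ear1 had a kept probe, while Epx and Prg2 did not.

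**Figure D2:**
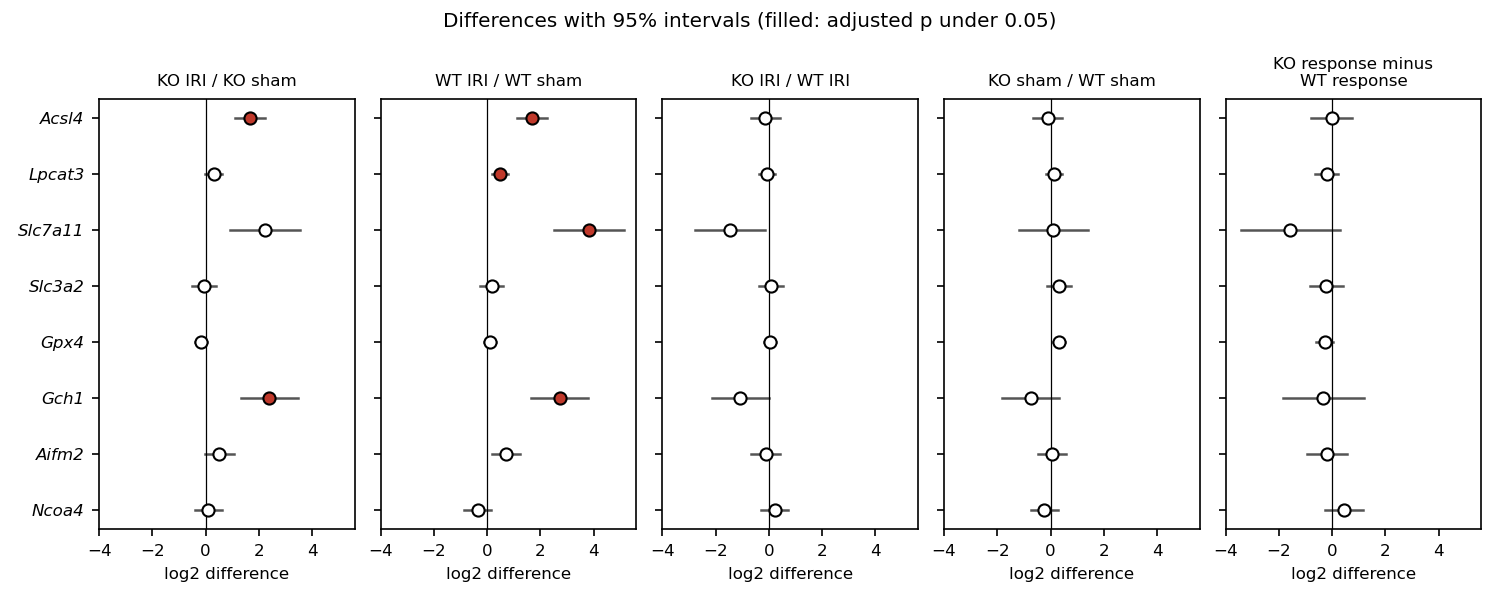
Difference of each of the 8 tested regulators on the log2 scale in 5 comparisons, with 95% intervals from limma over 12 arrays and filled points for an adjusted p under 0.05. Filled points appear only for IRI against sham, 2 in KO kidneys and 4 in WT kidneys, and all of them lie above 0.

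Of the cystine importer, the light chain Slc7a11 was seen mainly in injured kidneys and the heavy chain Slc3a2 was present throughout. The Slc7a11 probe A_51_P129502 (chr3:50176047-50176106, minus strand) had processed signals of 27.8, 9.04 and 38.3 on the KO IRI arrays, against 2.84, 6.44 and 3.21 on the KO sham arrays. On the WT IRI arrays its signals were 68.5, 57.9 and 49.9, against 9.37, 3.12 and 2.42 on the WT sham arrays. The probe was well above background on 2 of 3 KO IRI arrays, on 0 of 3 KO sham arrays, on 3 of 3 WT IRI arrays and on 0 of 3 WT sham arrays. The sham groups therefore give only a bound, which sets the mean of the injured kidneys against the lowest signal well above background, or the probe's own where that was higher.

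By this bound Slc7a11 was at least 4.65-fold higher in WT IRI than in WT sham kidneys. The same calculation gave 1.51-fold for KO IRI over KO sham kidneys, which is not a lower limit, since KO IRI replicate 2 was itself not well above background. In the fit the difference was 2.24 ± 0.59 in KO kidneys (limma, adjusted p = 0.0521) and 3.81 ± 0.59 in WT kidneys (limma, adjusted p = 0.0058). Both sizes rest on sham signals that were not well above background. With normexp background correction, which adds an offset of 50 to every signal and so shrinks differences of dim probes, the differences were 0.18 in KO kidneys (limma, adjusted p = 0.516) and 0.88 in WT kidneys (limma, adjusted p = 0.0069). The WT rise passed under all 23 alternatives, but each used WT sham signals that were not well above background. They therefore do not bear on that limit. The KO difference passed under 8 of them, including the fits without KO IRI replicate 2 (2.87), WT IRI replicate 1 (2.24) or WT sham replicate 1 (2.24). The other 3 Slc7a11 probes were not well above background on any array. One of them, A_52_P368057, had signals of 5.49, 2.47 and 3.85 in KO IRI, 3.00, 2.29 and 2.45 in KO sham, 12.9, 11.2 and 10.9 in WT IRI and 3.37, 2.16 and 2.42 in WT sham. Its IRI and sham signals overlapped in KO kidneys and did not overlap in WT kidneys. The third, A_52_P298824, had signals of 2.17, 2.47 and 2.32 in KO IRI, 2.88, 2.31 and 2.47 in KO sham, 2.52, 2.51 and 2.25 in WT IRI and 3.24, 2.15 and 2.38 in WT sham. The fourth, A_55_P2730048, lay between 2.13 and 3.29 on the 12 arrays. These signals overlapped between IRI and sham, and no order is read from any of the 3 probes.

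Slc3a2, which anchors several amino acid transporters in the membrane, did not pass in either genotype. Its probe at chr19:8782189-8782248 (minus strand) read 5.98, 5.78 and 5.33 on the KO IRI arrays, against 5.90, 5.69 and 5.66 on the KO sham arrays. It read 5.99, 5.41 and 5.43 on the WT IRI arrays, against 5.54, 5.49 and 5.31 on the WT sham arrays. The groups overlapped in both genotypes. The difference was -0.06 in KO kidneys, with a 95% interval of -0.50 to 0.39, and 0.16 in WT kidneys, with an interval of -0.29 to 0.61. The sign in KO kidneys turned with quantile normalization and median scaling. The other 2 probes gave -0.12 and 0.01 in KO kidneys and -0.24 and 0.16 in WT kidneys, so the probes differed in sign.

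Because Slc7a11, Gch1 and Acsl4 moved most, the 250 bases before their starts are printed from RefSeq (GRCm38.p6), with motif matches in capitals. Promoters were found for 8 of the 9 regulators, with 13 windows of 250 bases before to 50 after a start, and none was found for Alox15. The motifs searched on both strands were the antioxidant response element core TGACNNNGC, the amino acid response element core TGATGNAA and the STAT element TTCNNNGAA. They occurred in 12.4%, 3.97% and 8.30% of 32851 promoters of the same length.
Slc7a11 (chr3:50443614-50443863, minus strand): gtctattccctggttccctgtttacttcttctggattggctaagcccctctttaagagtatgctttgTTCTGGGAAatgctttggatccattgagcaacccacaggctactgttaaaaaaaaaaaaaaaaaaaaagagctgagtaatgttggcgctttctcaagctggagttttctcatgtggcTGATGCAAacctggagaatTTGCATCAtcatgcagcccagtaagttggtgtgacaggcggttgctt
Gch1 (chr14:47189414-47189663, minus strand): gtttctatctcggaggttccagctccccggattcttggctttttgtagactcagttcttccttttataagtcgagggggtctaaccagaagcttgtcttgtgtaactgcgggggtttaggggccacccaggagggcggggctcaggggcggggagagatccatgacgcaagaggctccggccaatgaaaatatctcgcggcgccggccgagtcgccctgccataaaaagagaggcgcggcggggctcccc
Acsl4 (chrX:142390536-142390785, minus strand): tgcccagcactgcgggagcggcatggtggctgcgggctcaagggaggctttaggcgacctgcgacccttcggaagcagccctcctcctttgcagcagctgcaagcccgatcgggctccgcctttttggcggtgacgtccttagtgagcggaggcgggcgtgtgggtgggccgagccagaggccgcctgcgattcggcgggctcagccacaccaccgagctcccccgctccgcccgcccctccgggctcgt
Slc7a11 held 2 matches to the amino acid response element core, TGATGCAA at -66 to -59 on the strand of the gene and TTGCATCA at -47 to -40 on the other, and 1 match to the STAT element, TTCTGGGAA at -183 to -175. Gch1 and Acsl4 held none of the 3 motifs in this window. The only other match among the regulators was an antioxidant response element core in 1 of 3 Ncoa4 windows, at -44 to -36. A match describes the letters only.

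Of the genes that hold peroxides in check, Gch1 rose in both genotypes and Gpx4 did not pass. Gch1 is the rate-limiting enzyme of tetrahydrobiopterin synthesis. Its 1 probe (chr14:47775348-47775407, minus strand) read 1.19, 0.79 and 1.61 on the KO IRI arrays, against -1.02, -1.43 and -1.16 on the KO sham arrays. It read 3.55, 1.17 and 2.09 on the WT IRI arrays, against -0.60, -0.65 and -0.12 on the WT sham arrays. All injured kidneys lay above all sham kidneys, and WT IRI replicate 1 was the highest of all. The difference was 2.40 ± 0.48 in KO kidneys (5.27-fold; limma, adjusted p = 0.0196) and 2.72 ± 0.48 in WT kidneys (6.60-fold; limma, adjusted p = 0.0096). The KO response minus the WT response was -0.33, with a 95% interval of -1.84 to 1.19. The KO call was lost without KO IRI replicate 1 (2.40) or 3 (2.19), and without KO sham replicate 1 (2.49), 2 (2.28) or 3 (2.42), with adjusted p of 0.0549 to 0.0697 (limma). The WT call was lost when only the 6 WT arrays were fitted (limma, adjusted p = 0.0779).

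Gpx4, the peroxidase that reduces phospholipid hydroperoxides, varied least among the regulators. Its junction-spanning probe read 7.04, 7.21 and 7.10 on the KO IRI arrays, against 7.40, 7.26 and 7.20 on the KO sham arrays. It read 7.11, 7.04 and 7.10 on the WT IRI arrays, against 6.95, 6.99 and 6.97 on the WT sham arrays. The groups overlapped in KO kidneys and did not overlap in WT kidneys. The difference was -0.17 in KO kidneys, with a 95% interval of -0.40 to 0.05 (limma, adjusted p = 0.358), and 0.11 in WT kidneys, with an interval of -0.11 to 0.34 (limma, adjusted p = 0.496). The sign in WT kidneys turned with quantile normalization (-0.0089).

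Aifm2, also called FSP1, reduces ubiquinone. Its probe at chr10:61201320-61201379 (plus strand) read 3.60, 3.44 and 3.28 on the KO IRI arrays, against 2.98, 2.84 and 2.95 on the KO sham arrays. It read 4.04, 2.95 and 3.71 on the WT IRI arrays, against 2.74, 2.79 and 3.08 on the WT sham arrays. The groups overlapped only in WT kidneys, through WT IRI replicate 2 and WT sham replicate 3. The difference was 0.52 ± 0.24 in KO kidneys (limma, adjusted p = 0.249) and 0.69 ± 0.24 in WT kidneys (limma, adjusted p = 0.0857). Without WT IRI replicate 2 the WT difference was 1.00 and passed (limma, adjusted p = 0.0056), and it also passed with array weights (0.78). The second probe, printed above, differed by 0.83 ± 0.23 in each genotype, with an adjusted p of 0.0659 in KO kidneys and 0.0461 in WT kidneys (limma over probes).

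**Figure D3:**
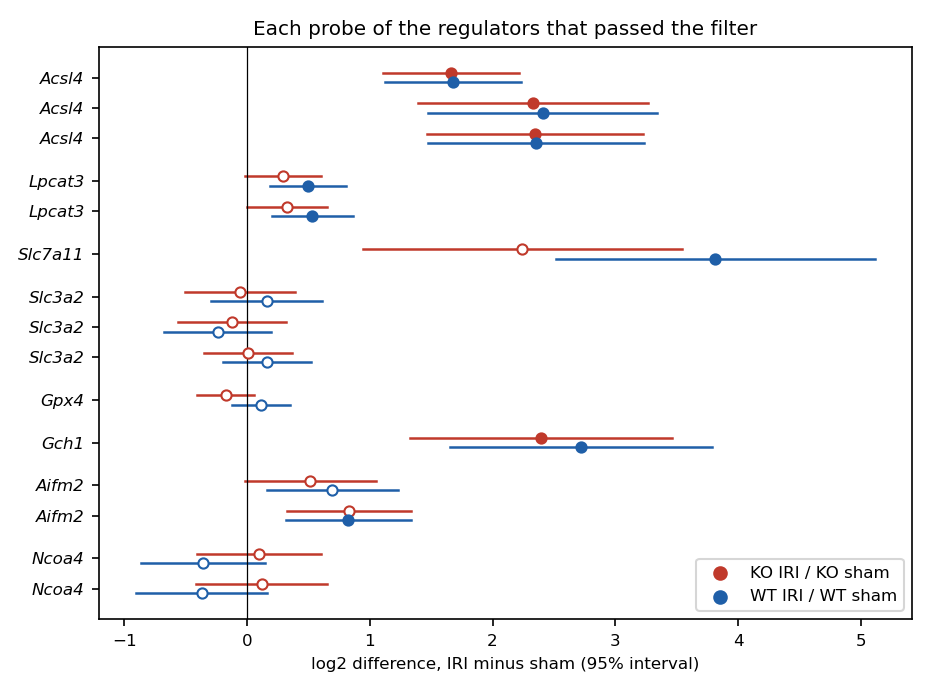
IRI minus sham difference of each of the 15 kept probes, on the log2 scale with 95% intervals from limma over all kept probes, in KO and WT kidneys, with filled points for an adjusted p under 0.05. The 3 Acsl4 probes passed in both genotypes, and the second Aifm2 probe passed in WT kidneys at 0.83.

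Ncoa4, the receptor that carries ferritin to the lysosome, did not pass in either genotype. Its probe at chr14:32992281-32992340 (plus strand) read 4.81, 4.95 and 4.55 on the KO IRI arrays, against 4.87, 4.37 and 4.78 on the KO sham arrays. It read 4.85, 4.28 and 4.50 on the WT IRI arrays, against 4.72, 4.67 and 5.34 on the WT sham arrays. The groups overlapped in both genotypes. The difference was 0.10 in KO kidneys (limma, adjusted p = 0.854) and -0.36 in WT kidneys (limma, adjusted p = 0.322), with 95% intervals of -0.40 to 0.60 in KO and -0.86 to 0.14 in WT. The second probe gave 0.12 in KO kidneys and -0.37 in WT kidneys.

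Between genotypes, no regulator passed the test, neither in sham kidneys, where 8.87% of all genes did, nor after IRI, where 1.93% did (limma). At an unadjusted p under 0.05 there was 1 of the 8 in sham kidneys, Gpx4, against 6316 of all 25937 genes (limma). After IRI there was also 1, Slc7a11, against 5624 of all 25937 genes (limma). Among the sham kidneys the KO and WT arrays did not overlap for 3 of the 8 regulators, against 42.7% of all genes. These were Gpx4, Slc3a2 and Gch1. Gpx4 was higher in KO sham by 0.32 ± 0.10 (limma, adjusted p = 0.0789), Slc3a2 by 0.31 ± 0.20 (limma, adjusted p = 0.396), while Gch1 differed by -0.75 ± 0.48 (limma, adjusted p = 0.388). The median difference of all genes in this comparison was 0.12. Gpx4 passed without WT IRI replicate 1 (0.32; limma, adjusted p = 0.0383) and with array weights (0.28), and was 0.17 with quantile normalization. Gch1 passed when only the 6 sham arrays were fitted (limma, adjusted p = 0.0465) and with array weights (-0.59).

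After IRI the KO and WT arrays did not overlap for 1 of the 8 regulators, against 21.8% of all genes. This was Slc7a11, with a difference of -1.46 ± 0.59 (limma, adjusted p = 0.194), and with KO IRI replicate 2 not well above background. Gch1 differed by -1.07 ± 0.48 (limma, adjusted p = 0.231), with WT IRI replicate 2 inside the range of the KO IRI arrays. For Acsl4 the difference between the injured kidneys was -0.13, with a 95% interval of -0.68 to 0.42. The interaction for Slc7a11 was -1.57 ± 0.83 (limma, adjusted p = 0.544), and it ranged from -2.06 to -0.70 over the alternatives. This value rests on 2 sham groups that were not well above background. The differences of the IRI and sham contrasts share their sham or injured arrays and are not independent of each other.

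Other genes of the same pathways were followed in 5 lists with 62 genes, all of which had a kept probe. After IRI 6 of them were higher and 9 lower in KO kidneys, and 9 were higher and 7 lower in WT kidneys (limma, adjusted p under 0.05). Of all genes 2.11% were higher and 4.05% lower in KO kidneys, and 6.07% were higher and 5.9% lower in WT kidneys, which is the background for each of the 5 lists. The median difference of the 62 genes was -0.20 in KO kidneys and -0.04 in WT kidneys, and that of all genes was -0.08 in KO kidneys and -0.01 in WT kidneys. In KO kidneys the 15 calls numbered 25 without WT IRI replicate 1, 7 without KO IRI replicate 1 and 2 without KO IRI replicate 3. They numbered 2, 7 and 4 without KO sham replicates 1, 2 and 3. In WT kidneys the 16 calls numbered 7 without WT IRI replicate 3, 4 and 3 without WT sham replicates 1 and 2, and 10 without KO sham replicate 3. With only the 6 WT arrays fitted, 2 were called in WT kidneys.

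Of 12 genes of glutathione synthesis and use, 0 were higher and 3 lower in KO kidneys (all genes 2.11% and 4.05%), and 1 was higher and 2 lower in WT kidneys (all genes 6.07% and 5.9%). Ggct, which breaks down γ-glutamyl peptides, fell by 1.51 ± 0.13 in KO kidneys (limma, adjusted p = 0.0009) and by 0.62 ± 0.13 in WT kidneys (limma, adjusted p = 0.0173). Cbs, the first enzyme of the route from homocysteine to cysteine, fell by 1.17 ± 0.22 in KO kidneys (limma, adjusted p = 0.0140) and by 1.07 ± 0.22 in WT kidneys (limma, adjusted p = 0.0149). Cth, the next enzyme of that route, fell by 0.56 in KO kidneys, a call lost in 15 of 23 alternatives. Gclc, the catalytic subunit of the rate-limiting enzyme of glutathione synthesis, rose by 1.09 ± 0.28 in WT kidneys (limma, adjusted p = 0.0342), a call lost in 9 of 23 alternatives.

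Of 15 genes of lipid remodelling and peroxidation, 0 were higher and 3 lower in KO kidneys (all genes 2.11% and 4.05%), and 2 were higher and 3 lower in WT kidneys (all genes 6.07% and 5.9%). Far1 and Agps, enzymes of ether lipid synthesis, and the desaturase Fads2 fell in both genotypes. Far1 fell by 1.17 ± 0.18 in KO kidneys (limma, adjusted p = 0.0065) and by 0.82 ± 0.18 in WT kidneys (limma, adjusted p = 0.0190). Agps fell by 0.70 in KO kidneys and 0.54 in WT kidneys, and Fads2 by 0.69 in KO kidneys and 0.64 in WT kidneys. Of 23 alternatives, 6 in KO and 10 in WT kidneys lost the Agps call, and 9 in KO and 7 in WT kidneys lost the Fads2 call. Ptgs2, the inducible cyclooxygenase, rose by 3.00 ± 0.57 in WT kidneys (limma, adjusted p = 0.0123). Mboat1, an acyltransferase of lysophospholipids, rose by 0.89 ± 0.16 in WT kidneys (limma, adjusted p = 0.0107).

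Of 14 iron handling genes only Hmox1, which frees iron from heme, was called. It rose by 2.25 ± 0.51 in KO kidneys (limma, adjusted p = 0.0316) and by 1.92 ± 0.51 in WT kidneys (limma, adjusted p = 0.0385). Its call was lost in 5 of 23 alternatives in KO kidneys and in 10 of 23 in WT kidneys, and 1 of 14 lay close to the share of all genes that were higher in WT kidneys (6.07%), against 2.11% in KO kidneys. Of 10 genes of quinone, tetrahydrobiopterin and thiol defence, 1 was higher and 3 lower in KO kidneys (all genes 2.11% and 4.05%), and 2 were higher and 2 lower in WT kidneys (all genes 6.07% and 5.9%). Nqo1, a quinone reductase, rose by 1.10 ± 0.20 in KO kidneys and by 1.03 ± 0.20 in WT kidneys. Txnrd1, thioredoxin reductase, rose by 1.05 ± 0.20 in WT kidneys. Qdpr, which recycles biopterin, fell by 0.74 in KO kidneys and 0.54 in WT kidneys, and Coq2, of ubiquinone synthesis, fell by 0.51 in KO kidneys and 0.39 in WT kidneys. The Coq2 call was lost in 9 of 23 alternatives in KO kidneys and in 16 of 23 in WT kidneys, and the Qdpr call in 3 of 23 in KO kidneys and in 9 of 23 in WT kidneys. Gchfr, the feedback regulator of Gch1, fell by 0.55 ± 0.12 in KO kidneys (limma, adjusted p = 0.0233).

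Of 11 transcriptional and stress regulators, 4 were higher in KO kidneys (2.11% of all genes), 3 were higher in WT kidneys (6.07% of all genes) and none was lower. Trib3, a pseudokinase induced by Atf4, rose by 1.94 ± 0.37 in KO kidneys (limma, adjusted p = 0.0166). Hspb1, a small heat shock protein, rose by 1.11 ± 0.27 in KO kidneys and by 1.84 ± 0.27 in WT kidneys. Trp53 and Ddit3 rose by 1.10 and 0.90 in KO kidneys, and Atf3 and Sat1 by 1.81 and 0.92 in WT kidneys. In WT kidneys Ddit3 went the other way without passing, at 0.3, 0.6 and 1.0 after IRI against 1.2, 1.1 and 1.4 in sham. Over the 23 alternatives the KO difference of Ddit3 ranged from 0.026 to 1.12. The KO calls of Ddit3, Trp53 and Hspb1 were lost in 13, 10 and 9 of 23 alternatives, and no interaction passed among the 62 genes (limma). Over all lists, Ggct and Far1 in KO kidneys and Hspb1 and Mboat1 in WT kidneys passed under each of the 23 alternatives.

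**Figure D4:**
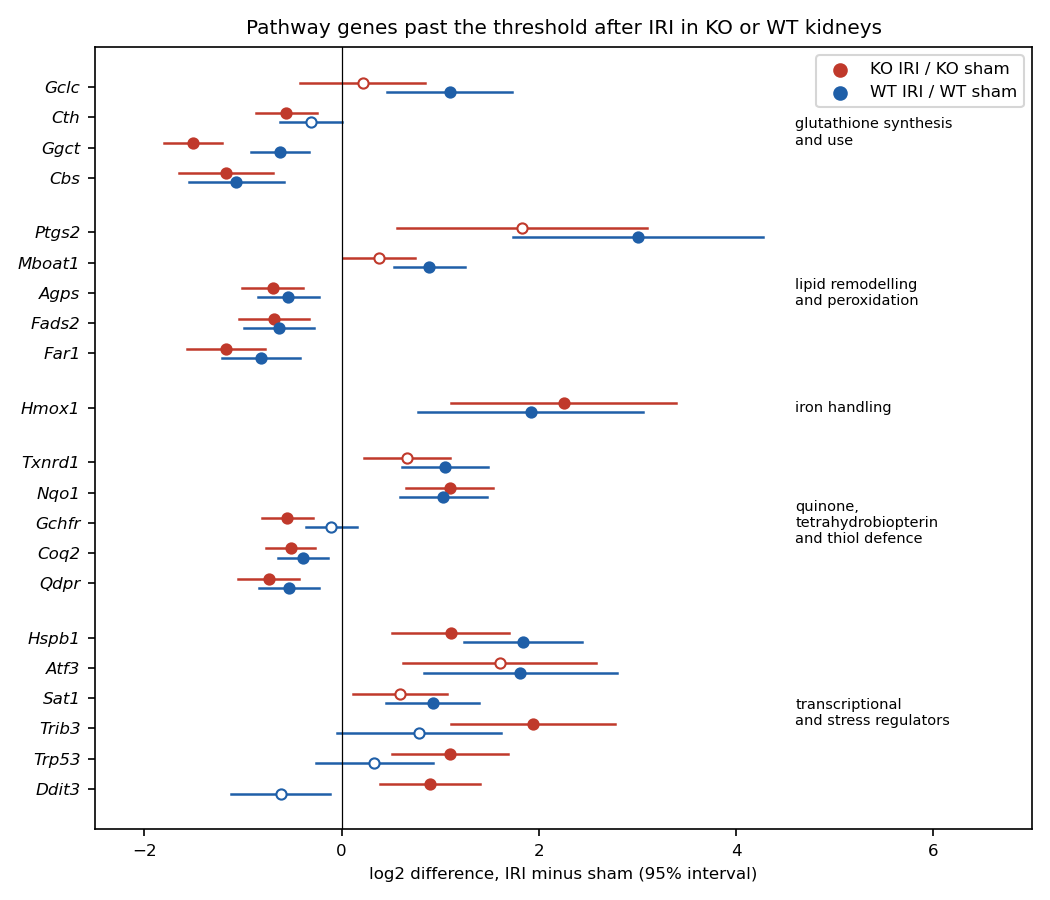
IRI minus sham difference, on the log2 scale with 95% intervals from limma, of the 21 pathway genes that passed in KO or WT kidneys, by list, with filled points for an adjusted p under 0.05. Ggct, Cbs, Far1, Agps, Fads2, Coq2 and Qdpr have filled points below 0 in both genotypes, and Hmox1, Nqo1 and Hspb1 have them above 0 in both.

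Between genotypes 5 of the 62 genes passed in sham kidneys, 3 higher and 2 lower in KO, a share near the 8.87% of all genes. Ggct was higher by 0.81, Gchfr by 0.68 and Agps by 0.58, and Ddit3 differed by -1.41 and the stress-induced transcription factor Atf3 by -2.01. Of 22 alternatives, 11 lost the Agps call, 6 the Atf3 call, 1 the Ddit3 call, 1 the Gchfr call and 0 the Ggct call. After IRI 3 of the 62 passed, against 1.93% of all genes, and they were lower in KO, namely Atf3 (-2.22), Hspb1 (-1.32) and Mboat1 (-0.83), each call lost in 11 of 22 alternatives. Without WT IRI replicate 1 there were 13 calls in sham kidneys and 1 after IRI. Leaving out any 1 array gave 3 to 13 calls in sham kidneys and 0 to 5 after IRI, the highest of these without WT IRI replicate 2. The slide changes with genotype in each of these comparisons.

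Markers of tubule injury and of other cells moved with the IRI contrasts, and their part in the results was not tested. The summed level of 6 injured tubule markers ranged over 6.06 to 6.89 in KO IRI, 3.27 to 3.68 in KO sham, 7.11 to 8.57 in WT IRI and 3.89 to 4.49 in WT sham, with 3 of 6 higher in KO and 4 of 6 in WT kidneys. The 6 proximal tubule markers ranged over 8.79 to 8.98 in KO IRI, 9.53 to 9.73 in KO sham, 8.68 to 8.82 in WT IRI and 9.10 to 9.28 in WT sham, with 4 of 6 lower in each genotype. The 6 neutrophil markers ranged over 5.40 to 6.21 in KO IRI, 5.87 to 6.27 in KO sham, 6.80 to 6.92 in WT IRI and 5.92 to 6.49 in WT sham, with 2 higher in KO and 4 higher and 1 lower in WT kidneys. The sum is carried by the brightest markers. With each neutrophil marker first centred on its mean over 12 arrays, their mean ranged over -0.58 to 0.51 in KO IRI, -2.30 to -1.16 in KO sham, 1.87 to 2.24 in WT IRI and -0.86 to 0.93 in WT sham. The injured tubule and proximal tubule sums and the centred neutrophil markers thus separated IRI from sham in both genotypes. The neutrophil sums overlapped in KO kidneys.

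The 6 macrophage markers lay at 3.99 to 4.27 in KO IRI, 4.47 to 4.68 in KO sham, 4.19 to 4.58 in WT IRI and 4.62 to 4.81 in WT sham, with 1 higher and 1 lower after IRI in KO, and 1 higher and 3 lower in WT kidneys. Centred as the neutrophil markers were, their mean was -0.42 to 0.08 in KO IRI and -0.66 to -0.04 in KO sham. These KO ranges overlapped, unlike those of the sum. In WT kidneys the centred mean was -0.04 to 0.06 after IRI and 0.47 to 0.62 in sham. The 6 T and NK cell markers lay at -0.40 to -0.18 in KO IRI, 0.31 to 1.37 in KO sham, -0.05 to 0.47 in WT IRI and 1.48 to 4.51 in WT sham, with 0 called after IRI in KO and 6 lower in WT kidneys. The 6 interferon response genes lay at 3.23 to 3.42 in KO IRI, 3.39 to 4.34 in KO sham, 5.21 to 8.04 in WT IRI and 7.65 to 9.18 in WT sham, with WT IRI replicate 1 at 8.04, and with 1 lower after IRI in KO and 4 lower in WT kidneys. By the sums, the highest array in each of these 3 lists was a WT sham kidney. All WT sham arrays lay above all others only for the T and NK cell markers. The 5 kept erythrocyte markers lay at 4.66 to 6.26 in KO IRI, 4.40 to 5.23 in KO sham, 6.47 to 7.37 in WT IRI and 4.03 to 4.58 in WT sham, with 0 called after IRI in KO and 5 higher in WT kidneys. The 5 adipocyte markers lay at 4.66 to 4.92 in KO IRI, 3.88 to 4.22 in KO sham, 4.92 to 5.87 in WT IRI and 3.49 to 3.67 in WT sham, with 1 higher after IRI in KO and 3 higher in WT kidneys. Their centred means overlapped in KO kidneys, at 0.23 to 0.91 after IRI and -1.16 to 0.66 in sham. By their sums the macrophage, T and NK cell and adipocyte lists also separated IRI from sham in both genotypes. The 2 kept eosinophil markers lay at -5.01 to -4.36 in KO IRI, -5.25 to -4.18 in KO sham, -4.80 to -3.51 in WT IRI and -4.52 to -4.32 in WT sham, overlapping in all groups, and 0 were called in either genotype.

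The genes whose levels ran most like those of the regulators over the 12 arrays were found for the 3 regulators with an SD of at least 0.5 log2 units. The measure is the root mean square distance between the centred levels of 2 genes, and the arrays share the injury contrast, so it is a description only. The nearest genes and the median distances were taken over protein-coding genes, without those that carry provisional symbols. For Acsl4 the nearest were Srxn1 (0.271), which restores oxidised peroxiredoxins, the actin-capping protein Capg (0.291) and the lipid phosphatase Plpp5 (0.302). The median distance from Acsl4 was 0.948. For Gch1 they were the adenosine receptor Adora2b (0.329), the TWEAK receptor Tnfrsf12a (0.420) and the mitochondrial carrier Ucp2 (0.424), against a median of 1.52. For Slc7a11 they were Ppm1j (0.676), Hesx1 (0.680) and Prg4 (0.681), against a median of 1.78. These lay farther off than the nearest patterns of Acsl4 and Gch1. The Slc7a11 probe was well above background on only 5 of the 12 arrays, so its distances rest partly on signals that were not.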

How the data were processed

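The deposited scanner files were written by Feature Extraction 10.7.1.1 according to their headers. Their processed signal is, per the file headers, a linear intensity that the scanner software had corrected for background, with no scaling between arrays. The authors also deposited a table of log2 values, for which the submitters' processing notes name limma. Flags per spot, as deposited, say whether it was well above background, saturated or an outlier.

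Control and outlier spots were left out, spots of a probe were averaged, and log2 processed signals were reduced by the 75th percentile of their array. Of 56605 probes, 39427 were well above background on at least 3 arrays, and the kept probe with the highest mean stood for a gene. Symbols of 32994 probes were matched to RefSeq (GRCm38.p6), while probe positions are those of the files (mm9). limma 3.58.1 in R 4.3.3 fitted 1 coefficient per group over 12 arrays (8 residual degrees of freedom), with two-sided tests, Benjamini-Hochberg adjustment over all 25937 genes and a threshold of 0.05. With 3 arrays per group, precision is limited. On simulated data for WT IRI against WT sham with 25937 genes, 49% of 100 genes changed 2-fold and 84% of 100 changed 4-fold were recovered.

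All 9 regulators and Jaml are named. From each pathway list up to 4 genes per comparison past the threshold are named, by smallest adjusted p, and for regulators with an SD of at least 0.5 the 3 nearest genes. The summed level of a marker list is the log2 of the sum of its scaled signals. The regulators and lists were chosen with earlier results of these data known. Alternatives covered background, scaling, filter, probe choice, the authors' table, arrays fitted, replicate block, slide, array weights and each array left out. The deviations of same-numbered arrays from their group means correlated with r of -0.267 to 0.151.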

Additional observations from a re-analysis of the deposited data

How the results depend on the processing

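The number of regulators past the threshold for KO IRI against KO sham was 2, but 4 with quantile normalization, 4 with the authors' log2 table and 4 with array weights, and 1 to 3 when 1 array was left out. For WT IRI against WT sham it was 4, but 1 when only the arrays compared were fitted, and 3 to 5 when 1 array was left out. For KO against WT sham it was 0, but 1 when only the arrays compared were fitted, 2 with array weights, and 0 to 1 when 1 array was left out. For KO against WT IRI and for the interaction it stayed at 0 under the alternatives run. The causes were not tested.

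Signs that turned belonged to differences that passed no test. With quantile normalization these were Gpx4 in WT (-0.0089), Slc3a2 in KO (0.057), Aifm2 (-0.00081) and Slc7a11 (-0.17) for KO against WT sham, Lpcat3 for KO against WT IRI (0.011) and the Acsl4 interaction (0.11). The authors' log2 table turned the same differences, to -0.0090, 0.056, -0.0013, -0.17, 0.011 and 0.11 in the same order. Median scaling turned Slc3a2 in KO (0.082), Aifm2 for KO against WT sham (-0.045) and the Acsl4 interaction (0.12). It moved the median difference of all genes by 0.14 in KO kidneys and in the interaction. The mean over probes turned Aifm2 for KO against WT sham (-0.014). Array weights turned Slc3a2 in WT (-0.051), Ncoa4 in KO (-0.042) and Slc7a11 for KO against WT sham (-0.40). The cause of these turns was not tested.

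Leaving out 1 array in turn gave ranges across 0 for Slc3a2 in KO (-0.20 to 0.13) and in WT (-0.030 to 0.26), and for Ncoa4 in KO (-0.051 to 0.21). The same held in KO against WT sham for Aifm2 (-0.014 to 0.16) and Slc7a11 (-0.28 to 0.60). In KO against WT IRI it held for Acsl4 (-0.47 to 0.14), Aifm2 (-0.43 to 0.11), Gpx4 (-0.014 to 0.070), Lpcat3 (-0.17 to 0.061) and Slc3a2 (-0.053 to 0.28). In the interaction it held for Acsl4 (-0.36 to 0.26), Aifm2 (-0.49 to 0.060) and Gch1 (-0.87 to 0.31).

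With a replicate block the WT Lpcat3 difference no longer passed (0.50; limma, adjusted p = 0.0603), and the other regulators kept their side of the threshold. Of 18 pairs of same-numbered arrays, 4 deviated from their group means with a correlation of more than 0.1. Differently numbered arrays were not compared, so these values do not decide whether the numbers pair the arrays. Counts over all genes moved far more than those of the regulators. When 1 array was left out they were 454 to 3253 in KO IRI against KO sham, 846 to 4672 in WT IRI against WT sham, 649 to 4405 in KO against WT sham, 146 to 971 in KO against WT IRI and 4 to 148 in the interaction. With array weights they were 5750, 8926, 9664, 2036 and 1357 in that order. With only the arrays compared they were 2441, 417, 4039 and 35 in that order, without the interaction. KO against WT IRI had 501 calls, but 329 with normexp and 279 with the replicate block, and the interaction had 18, but 37 with normexp, 9 with the mean over probes and 5 with the replicate block. Of the 62 pathway genes, array weights called 39 in KO, 29 in WT, 26 for KO against WT sham, 6 for KO against WT IRI and 3 in the interaction. Without a filter on dim probes they were 9 in KO, 10 in WT and 0 for KO against WT IRI. KO against WT sham had 14 with only the arrays compared and 3 with the mean over probes, and KO against WT IRI had 0 with only the arrays compared. Since slide and genotype changed together, a fit with the slide as a block had to give the same values for IRI against sham. It is counted among the 23 alternatives, where it could not lose a call. For KO against WT it could not be fitted. Signal over background limits Slc7a11 and Alox15.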
